A study of Mus with 2 samples.

Results

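The genes described here are those of pre-mRNA splicing and of RNA helicases, compared between the kidneys of young and senescent mice of the C57BL/6 strain. They were taken by name from the deposited result table. Every entry whose gene name begins with Srsf, Hnrnp, Luc7l, Sf3, Prpf, Rbm, Ddx or Dhx and goes on with a digit or letter was kept, as was every Clk gene with a number, and Ddx3x, Ddx3y and Ddx58 were left out. The rule found 109 genes of the 8191 in the table, in 323 of its 20111 entries, where an entry is a gene in a cluster. By family, there were 10 Srsf, 3 Clk, 20 Hnrnp, 2 Luc7l, 8 Sf3, 12 Prpf, 23 Rbm, 21 Ddx and 10 Dhx genes. RefSeq's mouse annotation holds 156 protein-coding genes with such names, and 47 of them were not listed in any cluster, 23 of these in the Rbm family and 13 in the Ddx family. Clk2, Sf3a1, Srsf12 and Prpf40b were among the unlisted genes. The gene Luc7l itself falls outside the rule, since its name ends there. It had means of 0.152 and 0.498 in PT and 0.217 and 0.364 in Marco.

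Most pre-mRNAs carry introns, which the spliceosome removes. This machine is built for each intron from small nuclear ribonucleoproteins and many loosely bound proteins, and helicases of the DEAD-box and DEAH-box families drive its rearrangements. SR proteins, encoded by the Srsf genes, mostly promote the use of exons, heterogeneous nuclear ribonucleoproteins often oppose it, and Clk kinases phosphorylate SR proteins and release them from nuclear speckles. Many genes with an Rbm, Ddx or Dhx name act elsewhere, in RNA editing, translation, ribosome assembly or RNA decay, so the name alone does not make a gene a splicing gene.

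Whole kidneys were dissociated with enzymes and profiled by droplet single-cell RNA sequencing. The young group and the senescent group had 1 library each, from mice for which the labels give the strain C57BL/6 and no age, sex or number. The series states 10895 cells for the young and 4408 cells for the senescent mice. Values are the authors' mean expression per cell in 7 clusters, named in their table B, endo, LOH, Marco, Neutro, PT and T, in a unit whose scale is not stated. Below, a pair of means gives the young library before the senescent library. With 1 library per group there is no spread between mice, no test between groups was possible, and each mean stands without an SD. In the authors' deposited table an adjusted p-value reflects how far single cells vary, not mice. The table holds a gene in a cluster only at an absolute log2 fold change of 0.36 or more and a p-value below 0.05, so an unlisted gene cannot be called equal between the libraries. In PT the lowest senescent mean among higher genes was 0.169 and the lowest young mean among lower genes was 0.232. This limit bears on the higher of the young and senescent means, since Ddx55 was listed there at 0.0329 and 0.177. Genes whose higher mean lay between 0.169 and 0.232 were listed in PT only as higher, and some members, such as Ddx55, fell in that range.

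The cluster names were checked against marker lists as far as the listed genes allow. A marker is listed only where it differed between the libraries, so the number listed does not by itself identify a cluster. All 13 macrophage or monocyte markers were listed in Marco, with sums of 88.5 and 585, all 10 T cell markers in T (21.0 and 76.3) and 7 of 8 B cell markers in B (44.2 and 111), and each of them had a higher senescent mean there. Only 2 of 8 loop of Henle markers were listed in LOH (Umod and Kng2, summing to 55.5 and 159), fewer than the 4 in PT and the 5 in each of Marco and T. The loop of Henle markers summed to 5.26 and 1.30 in PT, 5.65 and 1.44 in Marco and 3.17 and 0.829 in T. Neutro listed 2 of 8 neutrophil markers (S100a8 and S100a9, summing to 1149 and 2632) and Marco listed 5. Proximal tubule markers were listed for 17 of 20 genes in PT, for 20 in Marco and for 19 in each of T and B, so their listing does not check the name PT. In endo, 0 of 12 endothelial markers were listed, so that name could not be checked. Libraries also differed in 3 ways that recur beside the results below. Listed proximal tubule markers summed to 964 and 276 in PT, where 8 were higher and 9 lower. Outside PT they summed to 864 and 31.6 in Marco, 700 and 28.3 in T, 708 and 30.6 in B, 295 and 23.9 in LOH, 429 and 151 in endo, where 9 of the 10 listed were lower, and 51.7 and 17.3 in Neutro. Listed immediate early and dissociation stress genes were higher in 13 of 15 in PT, where they summed to 5.79 and 46.5, and in 17 of 18 in Marco, where they summed to 11.6 and 134. They were also higher in 12 of 12 in LOH (8.76 and 37.2) and 12 of 13 in endo (9.60 and 56.7). In T 9 of 11 were higher (8.45 and 36.4), in B 10 of 11 (14.6 and 54.25) and in Neutro 2 of 2 (9.41 and 30.3). The nuclear noncoding RNA Malat1 had means of 94.2 and 565 in PT, 268 and 347 in LOH, 226 and 609 in endo and 85.3 and 130 in Marco. The part of these differences in the results was not tested.

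Splicing and RNA helicase genes had higher means in the senescent library in nearly all of their entries outside Neutro. In PT, 91 of 94 listed members were higher, against 78.4% of all genes listed there. In Marco 68 of 69 were higher, against 58.3% of all listed genes, and in LOH 21 of 23, against 47.8%. In T the count was 64 of 71, beside 44.8% of all listed genes, and in B it was 42 of 47, beside 28.2%. In endo 12 of 14 members were higher, where 48.2% of all listed genes were. Neutro went the other way, with 0 of 5 members higher, as were few of all its listed genes (6.35%). Genes were listed in Neutro as higher only from a senescent mean of 3.445, but as lower from a young mean of 1.069. The direction in Neutro is therefore bound by what could be listed there. Members were therefore higher even in B and T, where lower genes made up most of the list.

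**Figure D1:**
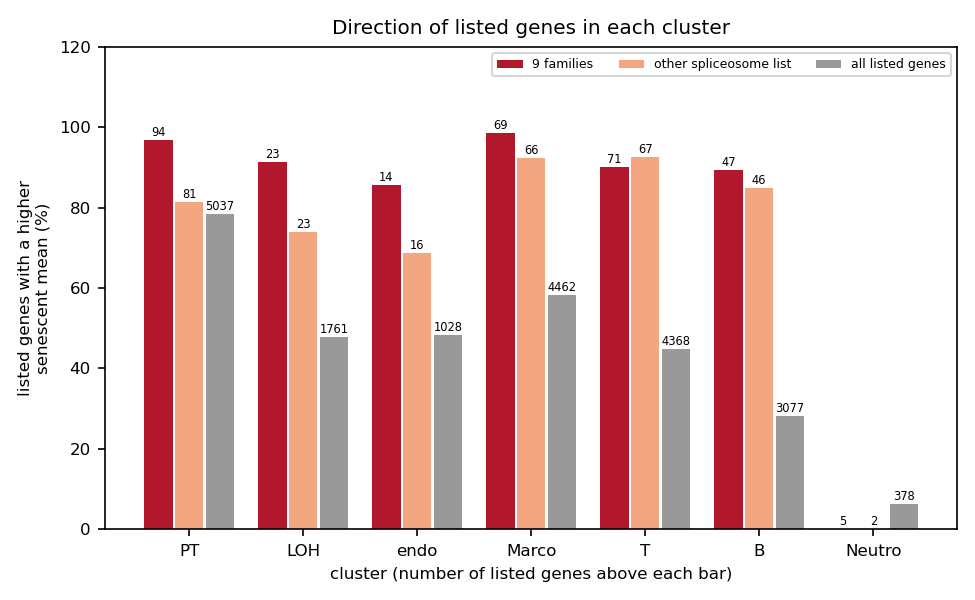
Share of listed genes with a higher mean in the senescent library (vertical axis, percent) in each of the 7 clusters, for the 9 splicing and helicase families, for the list of other spliceosome and mRNA processing genes, and for all listed genes, with the number of listed genes above each bar. The members stand at 85.7% or above in every cluster except Neutro, whereas in those 6 clusters all listed genes range from 28.2% in B to 78.4% in PT.

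A call here requires the authors' deposited table to give an adjusted p of at most 0.05, with at least a doubling or halving of the mean. In PT 78 of 94 members were called higher and 0 lower, where the background for all listed genes was 57.2% higher and 5.6% lower. Marco had 18 of 69 called higher and 1 lower, against 22.9% and 23.6%, a share of higher calls close to the background. For T the calls were 6 of 71 higher and 1 lower, against 3.85% and 20.7%, and for B they were 4 of 47 higher and 0 lower, against 2.79% and 15.5%. No member was called in LOH, endo or Neutro, where the background of higher calls was 2.16%, 0.389% and 0% and that of lower calls was 6.87%, 0.584% and 0%. Calls cannot be compared across clusters, because the adjusted p depends on how many cells a cluster holds, which the sources used here do not give. An adjusted p of at most 0.05 alone, in either direction, was reached by 94 of 94 members in PT, 24 of 69 in Marco, 13 of 71 in T, 4 of 47 in B and 0 in LOH and endo. For all listed genes it was reached by 100%, 49.4%, 30.7%, 19.7%, 14.7% and 0.973%, in that order. The share of members that passed was below that of all listed genes in Marco, T, B, LOH and endo.

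As a ratio of the means, the median difference was largest in PT and endo, while after adding 1 to each mean the median in B was above that in PT. The median member was 3.20-fold higher in PT, 2.90-fold in endo, 2.36-fold in Marco, 1.96-fold in T and 1.73-fold in LOH. In B it was 1.94-fold without Rbm34 and Srsf4, which have no ratio because their young means were 0. With the log2 fold changes of the authors' deposited table, which include both genes, the median was 1.06 in B and 0.97 in T. Each median is over a different set of listed members. On a log2 scale after adding 1 to each mean, which damps the change of low genes, the median was 0.43 in PT, 0.77 in endo, 0.40 in Marco, 0.42 in T, 0.54 in B and 0.34 in LOH. The median over all listed genes on the same scale was 0.23, -0.10, 0.23, -0.11, -0.27 and -0.11 in these clusters, in that order. Summed over listed members, the means came to 33.9 and 100 in PT, which was 0.463% and 1.40% of the sum of all listed genes. For B the corresponding shares were 0.697% and 1.54%, for T 0.718% and 1.46% and for Marco 0.487% and 1.08%. For endo they were 0.531% and 1.26% and for LOH 0.466% and 0.777%, whereas Neutro went the other way, at 0.47% and 0.053%. Splicing and helicase transcripts thus made up a larger part of the listed expression in the senescent library in every cluster except Neutro. These sums cover listed genes only, so the larger shares, and the smaller one in Neutro, partly repeat the counts of members by direction.

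**Figure D2:**
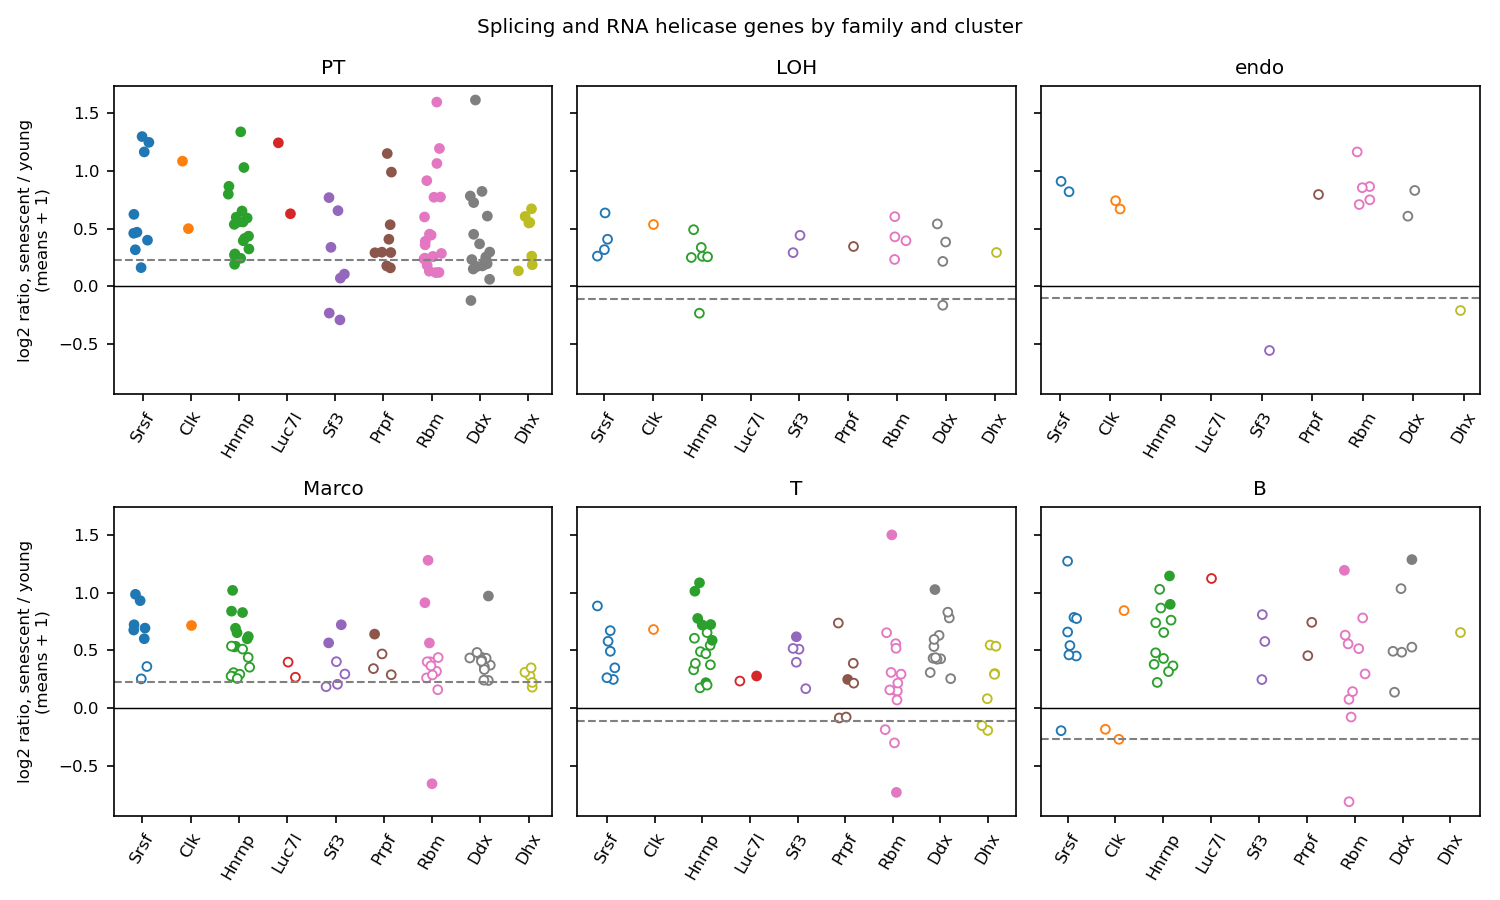
Log2 ratio of senescent over young means after adding 1 (vertical axis) for each listed member, by family (horizontal axis), in 6 clusters, with filled points where the authors' deposited table gives an adjusted p of at most 0.05 and open points for the rest. The dashed grey line is the median of all genes listed in the cluster. It is -0.27 in B and 0.23 in PT, and most members lie above it in each cluster.

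Among SR proteins, all 9 listed genes had higher senescent means in PT, all 8 in Marco, all 7 in T and 7 of 8 in B. Srsf5, which binds exonic enhancers, had means of 0.741 and 3.29 in PT, a 4.43-fold difference. Elsewhere Srsf5 had means of 1.08 and 2.23 in LOH, 1.17 and 3.08 in endo, 1.01 and 2.84 in Marco, 1.59 and 3.13 in T and 1.79 and 2.84 in B. Its young mean was lower than its senescent mean in each of the 6 clusters that list it. The young library's PT mean of Srsf5 was the lowest of its values in any cluster, and the senescent library's PT mean was the highest.

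Srsf11, which has an RS domain and contacts the 3′ splice site factor U2AF, showed the largest ratio of the family in PT, at 0.393 and 2.31, or 5.88-fold higher. In T it had means of 0.569 and 1.90, also the largest ratio of the family there. Srsf2, a resident of nuclear speckles that activates exons, had means of 1.16 and 3.84 in PT, 1.60 and 3.60 in endo, 0.836 and 1.78 in Marco and 2.11 and 3.24 in B. These ratios ranged from 1.42-fold in LOH to 3.32-fold in PT. Srsf6 and Srsf7 had smaller ratios in PT, 1.57-fold and 1.81-fold, although Srsf7 was 2.99-fold higher in Marco. The only SR protein gene with a lower senescent mean was Srsf6 in B, at 1.20 and 0.922, with an adjusted p of 1 in the authors' deposited table.

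In Marco, 6 of the 8 listed SR protein genes passed the adjusted p, beside 49.4% of all genes listed there. This was the highest share of any family with more than 1 listed gene there, over few genes. Srsf9, which was not listed in PT, had means of 0.904 and 2.77 in Marco, 3.06-fold higher, with an adjusted p of 1.64e-15 in the authors' deposited table. The other SR protein genes that passed there were Srsf11 at 3.05-fold, Srsf7 at 2.99-fold, Srsf5 at 2.80-fold, Srsf3, which autoregulates through a poison exon, at 2.19-fold and Srsf2 at 2.13-fold. Srsf4 had a ratio of 3.13-fold at low means (0.0986 and 0.308) and did not pass. In B, Srsf3 had means of 0.838 and 3.44, 4.11-fold higher, and Srsf4 had a senescent mean of 0.455 and was listed at 0 for the young library. None of the SR protein genes passed the adjusted p in T, B, LOH or endo.

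Of the kinases that phosphorylate SR proteins, Clk1 was listed in 6 clusters and had a higher senescent mean in each. The means of Clk1 were 0.307 and 1.77 in PT, 0.380 and 1.01 in LOH, 0.625 and 1.72 in endo, 0.419 and 1.33 in Marco, 0.832 and 1.95 in T and 0.928 and 2.46 in B. All 6 young means lay below 1 and all 6 senescent means lay above it. The ratio was 5.79-fold in PT and between 2.34-fold and 3.19-fold in the other clusters, and it passed the adjusted p in PT and Marco. Clk4, its closest relative, had means of 0.249 and 0.768 in PT and 0.0897 and 0.735 in endo, and in B it went the other way, at 0.702 and 0.409. Clk3 was listed in B alone, at 0.386 and 0.219. Neither Clk3 nor Clk4 passed the adjusted p in B. Srpk1 and Srpk2, the cytoplasmic kinases that send SR proteins to the nucleus, had means of 0.317 and 0.997 and of 0.0886 and 0.577 in PT. Srpk1 was lower in Marco, at 0.556 and 0.351, without passing the adjusted p.

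All 20 listed Hnrnp genes were higher in PT, by 1.34-fold to 4.74-fold with a median of 3.20-fold, and all 18 in Marco, all 17 in T and all 13 in B were higher as well. Hnrnpd, or AUF1, which binds AU-rich elements and promotes decay of such mRNAs, had the largest ratio in PT, at 0.181 and 0.859. It was also 3.27-fold higher in Marco, 4.02-fold higher in T (0.508 and 2.04) and 3.99-fold higher in B. The difference in Hnrnpd passed the adjusted p in PT, Marco and T and not in B.

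Hnrnpa2b1, which sorts RNAs and regulates exon choice, had means of 1.14 and 4.42 in PT, the highest senescent mean of the family there. Its relative Hnrnpa3 had means of 0.899 and 2.88 in PT, 1.46 and 3.98 in Marco, 3.19 and 5.10 in T and 1.66 and 4.87 in B. Hnrnpa0, which binds AU-rich mRNAs, was listed in 5 clusters, with a 3.23-fold difference in T (1.01 and 3.27) and 1.72-fold in LOH. Hnrnpu, a scaffold that holds chromatin and RNA together, had means of 0.524 and 1.78 in PT, 1.75 and 2.28 in LOH, 1.17 and 2.29 in Marco, 1.20 and 2.63 in T and 1.60 and 3.41 in B. These 4 genes had a higher senescent mean wherever they were listed. Hnrnpa1 has many processed copies in the mouse genome, so its means, 0.386 and 1.05 in PT, are uncertain.

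The Hnrnp genes with the highest young means in PT differed least there. Hnrnpf, which binds G-rich tracts, had means of 1.59 and 2.13, a 1.34-fold difference, and Hnrnpk, which binds C-rich tracts, had means of 1.53 and 2.08, 1.36-fold higher. In Marco, T and B the same gene Hnrnpf stood further apart, at 1.97 and 3.30 in Marco, 2.43 and 4.66 in T and 2.07 and 4.73 in B. Hnrnpf was 1 of the 4 members to pass the adjusted p in B, with Rbm3, Hnrnpa3 and Ddx5. Only Hnrnpm in LOH, at 0.865 and 0.588, had a lower senescent mean in this family, and its adjusted p was 1 in the authors' deposited table.

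Components of the spliceosome's core differed among themselves in PT. The SF3B complex sits in the U2 particle and holds the branch point. Its largest subunit gene, Sf3b1, had means of 0.333 and 1.27 in PT, 3.83-fold higher, Sf3b2 was 3.45-fold higher and Sf3b3, at 0.0770 and 0.362, was 4.70-fold higher. By contrast, the small subunit genes Sf3b5 and Sf3b6 had lower senescent means, 1.66 and 1.17 for Sf3b5 and 1.71 and 1.31 for Sf3b6. Phf5a, another small SF3B subunit that is no member by name, was also lower, at 0.959 and 0.690. The 2 Sf3 genes and the helicase gene Ddx39a were the 3 members with a lower mean in PT.

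Sf3b1 was also higher in LOH (0.673 and 1.27), Marco (0.871 and 1.77), T (1.22 and 2.40) and B (1.23 and 2.90). Sf3b6 was lower in endo, at 2.71 and 1.53, and higher in B, at 1.83 and 2.35, and Sf3b5 was higher in Marco, at 1.01 and 1.66. None of those 3 differences passed the adjusted p, whereas the lower means of both genes in PT did. In mm10, Sf3b5 lies on chromosome 10 from 13008450 to 13009183 and Sf3b6 on chromosome 12 from 4817608 to 4827659.

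**Figure D3:**
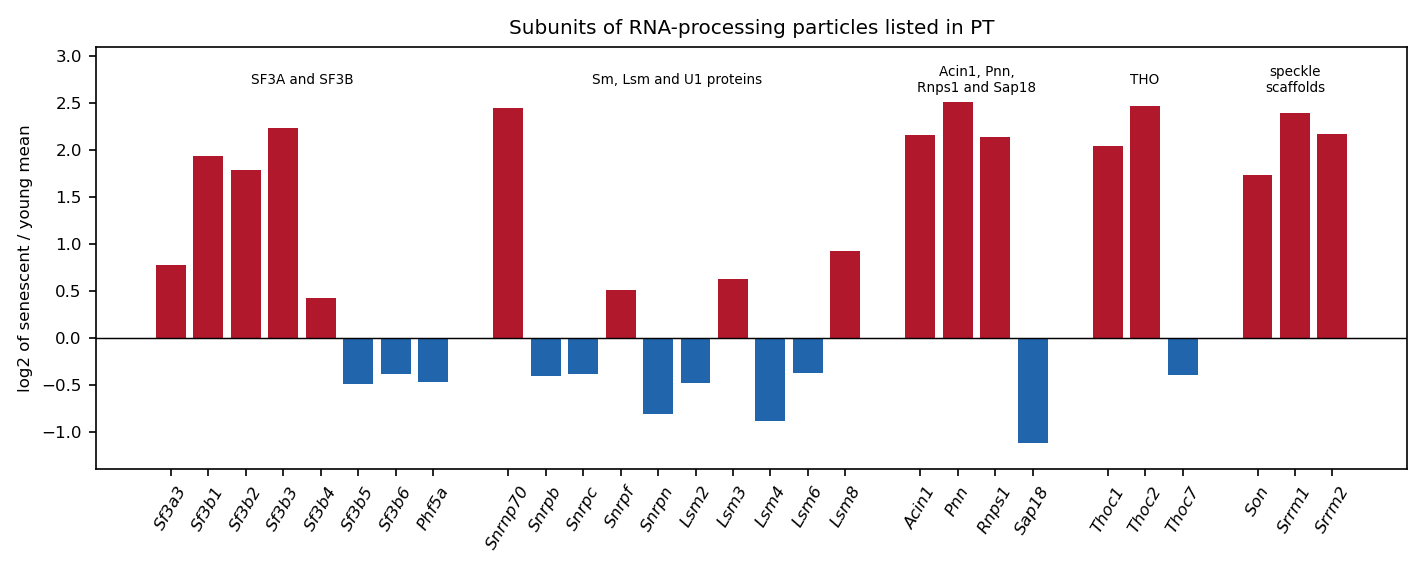
Log2 fold difference in PT, senescent against young (vertical axis, no constant added), for chosen subunits of RNA-processing particles that are listed there, with red bars for higher and blue bars for lower senescent means. Not every subunit of each particle was looked up. Within the SF3A and SF3B particle 5 genes are higher and 3 lower, and among Sm, Lsm and U1 proteins 4 are higher and 6 lower.

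The same mixture occurred in other particles in PT, which were looked at after these values had been seen. Of the listed genes for Sm and Lsm ring proteins and U1 proteins, 4 were higher and 6 lower. Lsm4, of the ring on U6 RNA, had means of 2.59 and 1.40, and Snrpb, of the Sm ring, had means of 1.30 and 0.979, whereas Snrnp70, the U1 70K protein, had means of 0.397 and 2.17. Acin1, Pnn and Rnps1, which act with the exon junction complex, were each higher in PT by between 4.41-fold and 5.69-fold, while their partner Sap18 was lower, at 2.29 and 1.05. In the THO complex, which couples transcription to mRNA export, Thoc1 and Thoc2 were 4.13-fold and 5.54-fold higher and Thoc7 was lower, at 2.998 and 2.28. Other THO subunits were not looked up. Thoc7 also had a lower senescent mean in LOH, Marco, T and B, with 2.51 and 0.632 in B. The speckle scaffold genes Son, Srrm1 and Srrm2 were all higher in PT, with Srrm2 at 0.757 and 3.42.

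Prpf genes, most of which encode parts of the U4/U6.U5 particle or of later complexes, were higher in all 9 listed cases in PT, by 2.13-fold to 7.94-fold. Prpf38b, a factor of the precatalytic spliceosome, had means of 0.214 and 1.70 in PT, 0.291 and 0.651 in LOH, 0.561 and 1.71 in endo, 0.421 and 1.21 in Marco, 0.511 and 1.52 in T and 0.915 and 2.20 in B. Its ratio was 7.94-fold in PT and between 2.23-fold and 3.05-fold in the other 5 clusters. Prpf39, which binds the U1 particle, was listed in PT alone and was 7.43-fold higher there (0.0751 and 0.558). Prpf8, the large scaffold at the catalytic centre, had a smaller difference in PT, at 0.216 and 0.491, and was 2.62-fold higher in T. Prpf4b, a kinase of the tri-snRNP, had means of 0.423 and 1.83 in PT and 1.82 and 2.86 in B. The tri-snRNP genes Prpf3 and Prpf31 were listed in T alone and were lower there, at 0.217 and 0.146 and at 0.291 and 0.222, neither past the adjusted p.

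Both Luc7l members encode proteins that bind the U1 particle and influence 5′ splice site choice. Luc7l2 had means of 0.346 and 2.19 in PT, 6.33-fold higher, and 0.450 and 2.16 in B, 4.79-fold higher, but 0.682 and 1.21 in Marco and 1.28 and 1.68 in T. Luc7l3 had means of 0.231 and 0.904 in PT, 0.525 and 0.834 in Marco and 0.674 and 1.03 in T. In T, the 1.52-fold difference of Luc7l3 had an adjusted p of 0.00326, whereas the 2.97-fold difference of Prpf38b had one of 0.227, both from the authors' deposited table. Passing the adjusted p there therefore did not follow the ratio of the means.

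The Rbm genes, which share an RNA-binding motif and little else, were higher in all 20 listed cases in PT, by 1.36-fold to 9.65-fold. The largest ratio of any member in PT was that of Rbm26, which acts in nuclear RNA decay, at 0.114 and 1.10. Rbm25, a U1-associated splicing factor, had means of 0.249 and 1.86 in PT, 0.673 and 2.05 in endo, 0.747 and 1.30 in Marco, 1.16 and 2.39 in T and 1.37 and 2.48 in B. Rbm39, a partner of U2AF, had the highest senescent mean of the family in PT, at 0.964 and 4.95, 5.13-fold higher. In LOH, where its young mean was already 2.98, Rbm39 was 1.42-fold higher, and in Marco, T and B it was 1.71-fold, 1.60-fold and 1.92-fold higher. Young means of Rbm39 lay between 0.964 and 3.75, and senescent means between 3.58 and 6.65. Rbm5 and Rbm6, neighbouring genes whose products regulate exon skipping, were 5.58-fold and 4.82-fold higher in PT.

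Rbm3, a cold-inducible RNA-binding protein, was listed in 6 clusters and passed the adjusted p in PT, Marco, T and B. Its means were 0.884 and 2.22 in PT, 0.833 and 1.79 in LOH, 0.681 and 2.77 in endo, 1.11 and 4.13 in Marco, 1.49 and 6.06 in T and 1.51 and 4.75 in B. The ratio ranged from 2.15-fold in LOH to 4.07-fold in endo, and PT, at 2.51-fold, was below Marco, T, B and endo. Rbm3 thus had its smaller ratios in LOH and PT, whereas Clk1, Prpf38b and Rbm39 had their largest in PT. Rbms1, a single-strand binding protein with no splicing annotation in the table, was higher in all 5 clusters that listed it, with 0.270 and 1.39 in Marco and 0.0762 and 0.633 in PT.

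Rbm47 stood apart from the family. This epithelial RNA-binding protein, a cofactor of cytidine editing, had a higher senescent mean in PT, at 0.819 and 2.81, and lower ones in Marco (1.56 and 0.626), T (1.16 and 0.298) and B (1.61 and 0.486). The lower values passed the adjusted p in Marco and T and not in B. Rbm47 was the only member called lower in any cluster. Its young means in Marco, T and B were above its young mean in PT. Proximal tubule markers were lower in the same 3 clusters, in all 20 listed in Marco and all 19 listed in each of T and B, and none of them was at 0 in either library. The part of those transcripts in the Rbm47 difference was not tested. Rbms2 in T, at 0.318 and 0.0676, had the lowest ratio of any member in that cluster without passing the adjusted p.

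The DEAD-box helicase gene Ddx5, whose product unwinds RNA and also acts as a coregulator of transcription, had the highest mean of any member in both libraries in PT. Means of Ddx5 were 2.25 and 8.98 in PT, 3.50 and 4.88 in LOH, 4.07 and 8.03 in endo, 3.85 and 8.49 in Marco, 6.14 and 13.5 in T and 5.80 and 15.6 in B. Each senescent mean exceeded the young mean of the same cluster, but the LOH senescent mean lay below the young means of T and B. The ratio was 3.98-fold in PT and 1.39-fold in LOH, and it passed the adjusted p in PT, Marco, T and B. Ddx17, the paralogue of Ddx5, had means of 0.291 and 1.29 in PT, 0.395 and 0.891 in Marco, 0.459 and 0.960 in T and 0.551 and 1.17 in B. Ddx17 passed the adjusted p in PT and in no other cluster.

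Helicases that drive single steps of the spliceosome were higher where they were listed, with exceptions for the export helicases. Ddx46, the counterpart of yeast Prp5 that acts with the U2 particle, had means of 0.124 and 0.715 in PT, 0.230 and 0.641 in Marco and 0.258 and 1.24 in T. Ddx23, which admits the tri-snRNP, was listed in PT alone, at 0.0351 and 0.221, and only Ddx55 had a lower young mean among the members there. Dhx15, which takes spent spliceosomes apart, had means of 0.268 and 0.857 in PT, 0.462 and 0.800 in LOH, 0.608 and 0.949 in Marco, 0.469 and 1.14 in T and 0.531 and 1.41 in B. Dhx38, for the second catalytic step, was 4.01-fold higher in Marco (0.0865 and 0.346), and Dhx8, which releases the spliced mRNA, had means of 0.111 and 0.295 there. Neither passed the adjusted p. Ddx39b, an ATPase of both splicing and mRNA export, was lower in LOH (0.552 and 0.386) and higher in endo (0.184 and 0.806), Marco and T. Its paralogue Ddx39a was lower in PT (0.327 and 0.220) and higher in T (0.153 and 0.666) and B. Outside PT none of these Ddx39a and Ddx39b differences passed the adjusted p.

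Helicases with other roles also had higher senescent means in most entries. Dhx9, which unwinds double-stranded RNA and RNA-DNA hybrids, had means of 0.121 and 0.788 in PT, the largest ratio of the Dhx family at 6.49-fold. Dhx36, which resolves G-quadruplexes, had means of 0.187 and 0.808, and Ddx6, of processing bodies, had means of 0.216 and 1.01 in PT and 0.622 and 1.36 in LOH. Ddx21, a nucleolar helicase of ribosomal RNA production, was 2.76-fold higher in PT and 5.91-fold higher in B (0.271 and 1.60), the largest ratio of any member in B with a young mean above 0. Ddx24, also nucleolar, was higher in 5 clusters, by 1.38-fold in LOH to 3.97-fold in PT. Dhx32 was lower in both clusters that listed it, endo (0.426 and 0.237) and T (0.226 and 0.103), and Dhx29, a translation initiation helicase, was higher in PT (0.149 and 0.262) and lower in T (0.307 and 0.142).

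**Figure D4:**
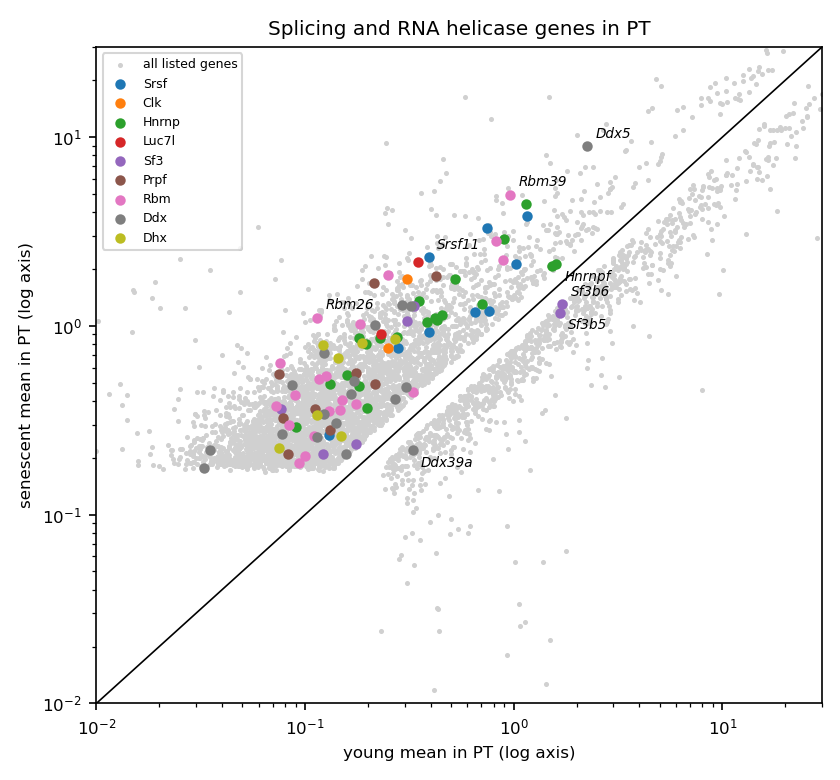
Young mean (horizontal log axis) against senescent mean (vertical log axis) in PT for all listed genes in grey and for the 94 listed members in the colours of their families, with the line of equal means. The axes run from 0.01 to 30, which leaves out 41 listed genes. All members lie above the line except Sf3b5, Sf3b6 and Ddx39a, and the empty band along the line reflects the minimum fold change of the list.

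Most members differed in 1 direction only. Of the 109 genes, 89 had a higher senescent mean in every cluster that listed them, 6 had a lower one in every such cluster, and 14 went both ways. These counts include 23 genes with a single entry, 18 higher and 5 lower, which could differ in 1 direction only. With Neutro set aside, 85 genes were listed more than once, and 73 of them had a higher senescent mean each time. No such share is given here for all genes in the table, so these counts stand without a background. No gene was listed in all 7 clusters. The 7 genes listed in 6 clusters were Clk1, Ddx5, Prpf38b, Rbm3, Rbm39, Srsf2 and Srsf5, and the 11 listed in 5 clusters were Ddx24, Dhx15, Hnrnpa0, Hnrnpa2b1, Hnrnpl, Hnrnpu, Rbm25, Rbms1, Sf3b1, Srsf11 and Srsf7. All 18 were higher wherever they were listed. Every cluster was drawn from the same young and senescent library, so a direction shared by clusters is not a repeat in other mice. The 6 genes that were only lower were Clk3, Ddx20, Dhx32, Prpf3, Prpf31 and Rbms2, of which 5 were listed in a single cluster.

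**Figure D5:**
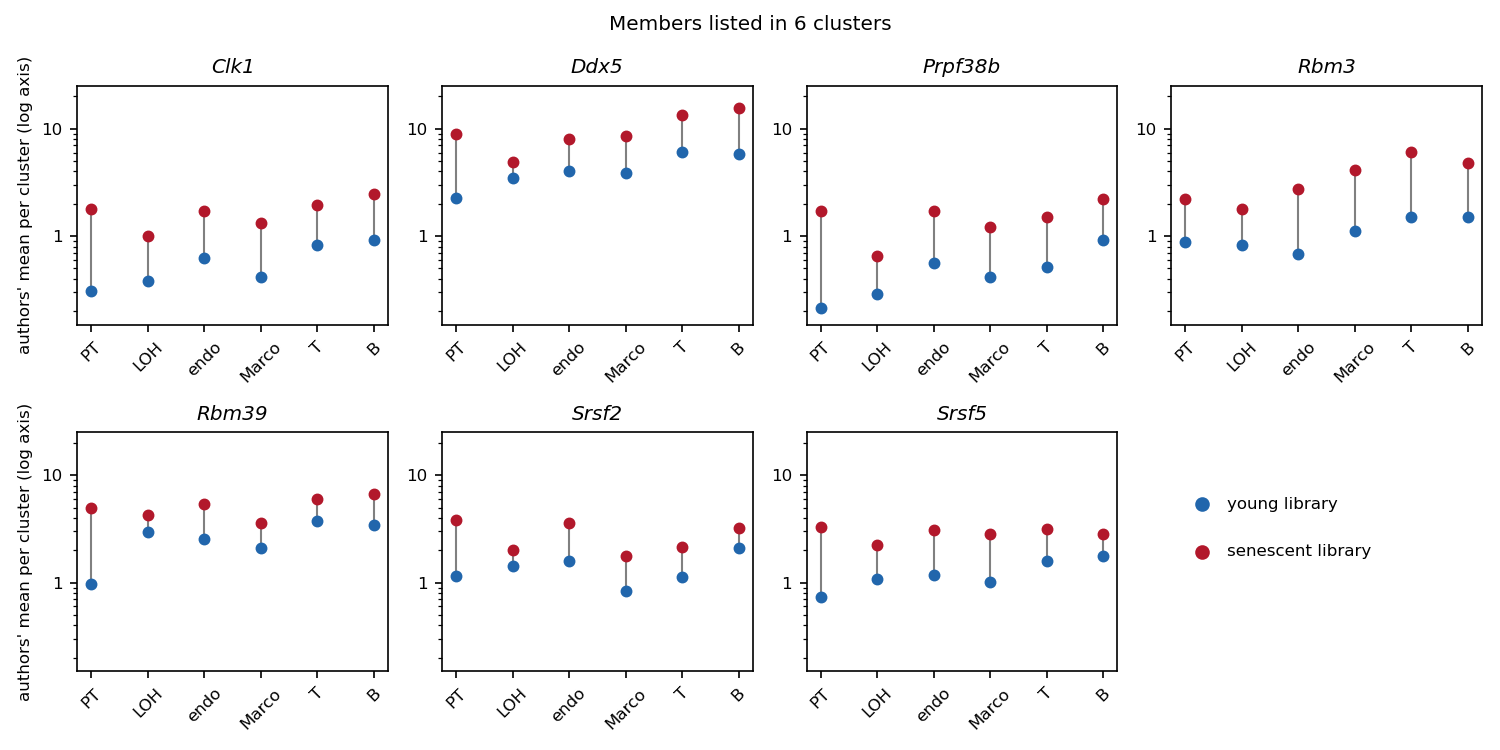
The authors' mean per cluster (vertical log axis) in the young library (blue) and the senescent library (red) for the 7 members listed in 6 clusters (horizontal axis), with 1 library per point. The red point lies above the blue point in every cluster and gene shown, and the distance is smallest in LOH for Ddx5, Prpf38b, Rbm3, Rbm39 and Srsf2, in T for Clk1 and in B for Srsf5.

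In mm10, Clk1 lies on chromosome 1 from 58411988 to 58424088, Ddx5 on chromosome 11 from 106780355 to 106789185, Prpf38b on chromosome 3 from 108902805 to 108911729, Rbm3 on chromosome X from 8138975 to 8145880, Rbm39 on chromosome 2 from 156147239 to 156180238, Srsf2 on chromosome 11 from 116849897 to 116853675 and Srsf5 on chromosome 12 from 80945495 to 80950507. All 109 members are protein-coding genes in RefSeq, and each value is for the whole gene, so changes of exon use or intron retention cannot be read from these means.

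Neutro held 5 listed members, all lower in the senescent library and none past the adjusted p. Ddx20, a partner of the SMN protein, and Ddx55 had the same values, 1.12 in the young library and 0 in the senescent library, and the young mean of Sf3b4 was also 1.12. Rbm5 had means of 3.39 and 0.799 and Sf3b6 had means of 6.75 and 1.09. No lower gene of Neutro had a young mean below 1.07, so genes at lower levels were not listed there as lower. No higher gene of Neutro had a senescent mean below 3.445, so the limit for a higher gene was stricter.

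Other genes of the spliceosome and of mRNA processing, which the name rule did not take, were listed as higher more often than lower outside Neutro. The list of 118 such genes was chosen with earlier results of these data known, so it is no independent check on the members. From this list, 66 were higher and 15 lower in PT, 61 and 5 in Marco, 62 and 5 in T, 39 and 7 in B, 17 and 6 in LOH, 11 and 5 in endo and 0 and 2 in Neutro. The share higher was 81.5% in PT, close to the 78.4% of all genes listed there. In the other clusters it was 92.4% beside 58.3% in Marco, 92.5% beside 44.8% in T, 84.8% beside 28.2% in B, 73.9% beside 47.8% in LOH and 68.8% beside 48.2% in endo, with the share of all listed genes given second. Their median log2 ratio after adding 1 was 0.34 in PT, 0.35 in Marco, 0.42 in T and 0.49 in B. Mbnl1, which governs developmental switches of exon use, had means of 0.170 and 1.00 in PT, 0.836 and 3.09 in Marco, 2.50 and 8.47 in T and 1.90 and 6.32 in B, and passed the adjusted p in PT, Marco and T. Celf2, its antagonist on many exons, was 5.71-fold higher in Marco. Snrpg, of the Sm ring, was higher in Marco (1.60 and 4.50), T (2.90 and 7.52) and B (4.02 and 6.12), each past the adjusted p, while Snrpd3 of the same ring was lower in B, at 2.14 and 1.53. Tra2b, an SR-like activator, had means of 0.295 and 1.61 in PT and 0.542 and 1.82 in endo.

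The annotation deposited with the table bears on what the members share. A term for splicing, the spliceosome or nuclear speckles was attached to 81 of the 109 members (74.3%) and to 4.78% of all other genes in the table. The members were taken by names of splicing and helicase families, so an excess of such terms follows from the rule. All Srsf, Clk, Luc7l and Sf3 genes carried such a term, as did 14 of 20 Hnrnp, 15 of 23 Rbm, 11 of 21 Ddx and 7 of 10 Dhx genes. Nuclear speck was attached to 39 members and RNA helicase activity to 31. Genes outside the 9 families that were annotated to nuclear specks were higher in 164 of 186 in PT, 109 of 133 in Marco, 98 of 131 in T and 41 of 86 in B. These are 88.2%, 82%, 74.8% and 47.7%, beside 78.4%, 58.3%, 44.8% and 28.2% of all listed genes. For members with that term the counts were 33 of 34, 25 of 25, 26 of 29 and 18 of 19. In LOH 33 of 46 such other genes and 8 of 9 such members were higher, beside 47.8% of all listed genes. In endo the counts were 20 of 30 and 5 of 5, beside 48.2%. In Neutro 0 of 6 such other genes were higher.

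Gene length differed with direction in PT. Among all genes listed there with a RefSeq span, 58.5% of those under 20000 bases and 91.6% of the longer ones were higher in the senescent library. Members were higher in 44 of 47 below that span and in 47 of 47 above it, with median log2 ratios of 0.33 and 0.45. The 3 lower members, Sf3b5, Sf3b6 and Ddx39a, were among the shorter genes. In T, by contrast, 35 of 36 short and 29 of 35 long members were higher, beside 44.5% and 46.5% of all short and long genes listed there. For all listed short and long genes the shares were 38.2% and 58.9% in LOH and 43.7% and 53.9% in endo. In Marco they were 56.6% and 60.3%, and in B 28.6% and 28.3%. All these shares leave out genes whose higher mean was below 0.1. The part of length in these differences was not tested.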

How the data were processed

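Kidney cells of young and of senescent mice were profiled in 1 droplet library per group. Per the submitters' processing notes, Cell Ranger 2.1.1 and the build mm10 were used. Cell filters, doublet treatment, clustering and test are not given in the sources used here. Both group columns hold a signal, which the authors computed as a mean per cluster and library. The deposited log2 fold changes equal the log2 of senescent over young means after adding 0.0001, and p-values and adjusted p-values were copied from the authors' table. No counting interval is given, because depth is unknown.

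Computed here were ratios of the means, counts by direction and medians, on a log2 scale with a pseudocount of 1, over at least 5 members whose higher mean was at least 0.1. Both columns were matched to the libraries by the descriptions in the labels. No test between groups was run. The members and lists were chosen with earlier results of these data known. Named genes were, in each cluster, up to 2 per family and direction with the largest log2 ratio, up to 4 of the other spliceosome list, and members listed in at least 5 clusters, where any member passed it at an adjusted p of at most 0.05. A gene of the other spliceosome list is not reported here by name. Other genes named were chosen after their values were seen. All 109 members matched RefSeq symbols on GRCm38.p6, the same build as mm10. The counting code was tested on simulated data. Python 3.11.15, pandas 2.3.3, numpy 2.4.6, matplotlib 3.10.9 and scipy 1.17.1 were used. Alternatives were other thresholds on the adjusted p, fold change and mean, other pseudocounts, removal of families and centring on all listed genes.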

Additional observations from a re-analysis of the deposited data

Results flagged for a closer look

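The 14 members below had a higher senescent mean in at least 1 cluster and a lower one in another. Log2 ratios are of senescent over young means after adding 1, and the clusters with the highest and lowest ratio are given. With 1 library per group these differences between clusters were not tested. Rbm47 had a log2 ratio of 1.07 in PT and -0.81 in B, a difference of 1.88, and the lower values of Rbm47 in Marco and T passed the adjusted p of the authors' deposited table, as did the higher one in PT. Ddx39a had a log2 ratio of 0.53 in T and -0.12 in PT, a difference of 0.65, and Sf3b5 had a log2 ratio of 0.40 in Marco and -0.29 in PT, a difference of 0.69. The lower PT values of both passed the adjusted p of the authors' deposited table. For splicing kinase Clk4 the difference was 0.94 between endo and B, for Ddx39b 0.77 between endo and LOH, for Hnrnpm 0.79 between PT and LOH, for Srsf6 0.56 between Marco and B, and for Rbmx 0.36 between PT and B. Rbm15 differed by 0.63 and Dhx29 by 0.33 between PT and T. Against Neutro, where low genes were not listed as lower, the differences were 2.13 for Sf3b6 from B, 2.06 for Rbm5 from PT, 1.27 for Ddx55 from PT and 1.17 for Sf3b4 from T.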

How the results depend on the processing

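The means of 1 library per group, a table that holds only genes under a p-value limit and an unstated scale bound every value above. With no threshold on the adjusted p, members called higher numbered 8 in LOH, 11 in endo, 47 in Marco, 33 in T and 24 in B, and lower ones 5 in T, 1 in B and 5 in Neutro. With the fold threshold raised to a log2 value of 2, higher calls were 29 in PT, 1 in Marco, 2 in T and 0 in B, and lower ones 0 in Marco and T. At 0.5 there were 12 higher in T and 1 lower in PT. The median log2 ratio was 1.24 in PT, 0.69 in LOH, 1.39 in endo, 1.00 in Marco, 0.85 in T, 0.93 in B, -2.97 in Neutro with a pseudocount of 0.1, and 1.68 in PT, 0.79 in LOH, 1.53 in endo, 1.24 in Marco, 0.97 in T, 1.06 in B, -4.33 in Neutro with the log2 fold changes of the authors' deposited table. Less the median of all listed genes it was 0.20 in PT, 0.17 in Marco and 0.00 in Neutro, where Ddx20 and Ddx55 went to 0.00, Lsm2 to 0.036 and Sf3b4 to 0.078, so the Neutro median of members equalled that of all its listed genes. With a mean of at least 0.5, chosen after seeing the data, entries over all clusters numbered 12 higher for Sf3, 39 higher and 4 lower for Rbm, 11 higher and 0 lower for Dhx, 1 lower for Clk and 0 lower for Prpf. No paired analysis was possible because each group has 1 library.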
